A study of Homo sapiens with 6 samples.

Results

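The rough endoplasmic reticulum (ER) is where secreted and membrane proteins enter the secretory pathway, and the genes described here encode the apparatus that brings them in, folds them and ships them to the Golgi. They are the 75 rows of the gene table whose symbols match the SEC, SSR, SPCS, SRP, SRPR, PDIA, TMED, COP (A, B, E, G and Z) and TRAM families, together with LMAN1, MCFD2, SURF4, MIA3, SAR1A, SAR1B, CALR, CANX and XBP1, out of 11456 genes in all. The match is by name alone and uses no expression value. The genes, roles and lists were, however, chosen with earlier results of these data known. It also takes in SEC14L1, SEC14L2 and SEC14L6, lipid-binding proteins that share a yeast gene name and no role in translocation, and the readthrough gene TMED7-TICAM2, which overlaps TMED7 on the same strand. HepG2-hCAR cells are a single-cell clone of HepG2, a liver cancer line, with a lentiviral transgene for human CAR (the constitutive androstane receptor, gene NR1I3) that is turned on by doxycycline. Cells received doxycycline at 1 µg/ml (3 libraries) or vehicle (3 libraries), and all were taken at 72 h. Both groups carry the transgene, and no library had doxycycline without it, so the antibiotic and the receptor cannot be told apart as sources of a difference.

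Proteins destined for secretion carry a signal sequence that the signal recognition particle (SRP) binds as it leaves the ribosome. The SRP receptor docks the ribosome at the SEC61 channel, the nascent chain is threaded through, signal peptidase removes the signal, and chaperones and disulfide isomerases fold the product. COPII coats then carry cargo out of the ER, COPI coats bring escaped residents and receptors back, and XBP1, a transcription factor of the unfolded protein response, is known to raise expression of many of these genes when folding capacity is short. Hepatocytes secrete most plasma proteins and so depend heavily on this route.

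The measurement is poly(A)-selected, strand-specific RNA sequencing, deposited as FPKM (fragment counts divided by transcript length and by the library's mapped total), a relative unit from which depth cannot be read. The listed FPKM values of a library summed to between 204318 and 209372. Libraries of the same group correlated across genes with Spearman's rho of 0.983 to 0.985 (6 pairs), and libraries of different groups with 0.960 to 0.964 (9 pairs). NR1I3 itself stood at 321 ± 8.51 FPKM with doxycycline and 3.24 ± 0.290 FPKM with vehicle (SD, n = 3 libraries per group here and below). Of 8 hepatocyte and HepG2 markers all were in the table, and their summed FPKM was 706 to 731 with doxycycline and 1421 to 1562 with vehicle. Most of that sum was APOB, at a mean of 444 FPKM with doxycycline and 819 FPKM with vehicle. ALB, AFP and TTR were low, with means of 0.373, 0.320 and 2.09 FPKM with doxycycline. With vehicle their means were 1.87, 6.01 and 3.90 FPKM. Of 5 endothelial markers none was in the table. Of 7 fibroblast and stellate markers 2 were, summing to 16.9 to 18.3 FPKM with doxycycline and 19.1 to 20.2 FPKM with vehicle. Of 6 immune markers 4 were in the table, and their sum of 264 to 278 FPKM with doxycycline and 545 to 588 FPKM with vehicle was mostly LYZ, while PTPRC was not among them. Of 4 bile duct markers 3 were in the table, summing to 264 to 267 FPKM with doxycycline and 239 to 248 FPKM with vehicle, with KRT19 higher (log2 fold change 0.55) and SOX9 and EPCAM lower (-0.20 each) with doxycycline. The part of these shifts in the results below was not tested. It is not stated in the labels that replicate libraries are separate cultures, so the p-values cover only the spread among these 6 libraries, which may be technical.

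Of the 75 genes, 73 reached a mean of 1 FPKM and were tested in a limma fit of log2(FPKM + 1) over all 10469 genes tested. A gene was called at a Benjamini-Hochberg adjusted p below 0.05 over all of them, and fold changes are doxycycline minus vehicle on that log2 scale. With doxycycline 20 genes fell and 5 rose, and 48 did not pass. That is 34.2% called, near the 28.8% of all genes tested, but split differently by direction, with 27.4% lower against 13.6% of all genes and 6.85% higher against 15.2%. The changes were small. The log2 fold changes ran from -0.80 in TMED2, which did not pass, to 0.70 in TMED6, none reached 1 in either direction, and their median was -0.06, against 0.01 over all genes tested. In 10 genes all doxycycline libraries lay above all vehicle libraries and in 32 all lay below. Over all genes tested the groups did not overlap in 47.1%, with doxycycline above in 24.8% and below in 22.3%. Summed over the 75 genes, FPKM was 2498, 2632 and 2618 in doxycycline libraries, against 2834, 2866 and 2920 in vehicle libraries, so every doxycycline sum was below every vehicle sum. In bulk RNA, fewer cells of a type and less RNA per cell cannot be told apart.

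**Figure D1:**
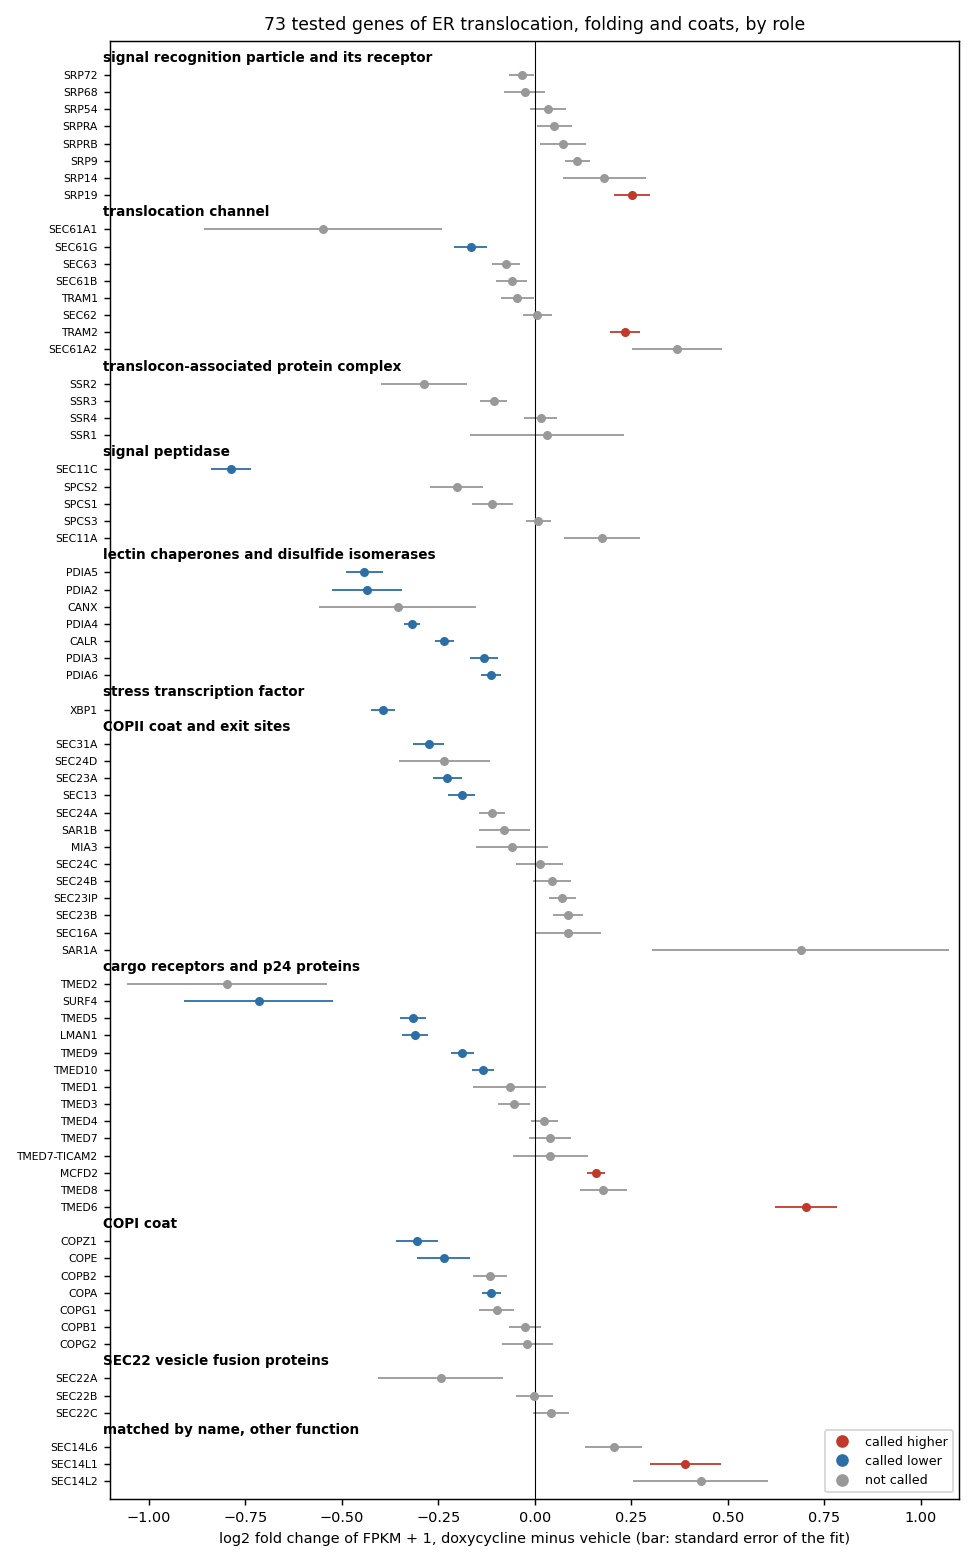
Log2 fold change of FPKM + 1 (doxycycline minus vehicle, x axis) of the 73 tested genes by role, with the standard error of the fit as bars and colour for the call. The folding genes and the COPI coat all lie left of 0, whereas signal recognition particle genes lie close to 0 or right of it.

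Because XBP1 and the related factor ATF6 are known to act through short promoter elements, the promoters of these genes were searched for 2 of them on both strands. RefSeq promoter windows (GRCh38.p14, 250 bases before to 50 after the start) were matched by symbol for 68 of the 75 genes. The elements were the ER stress response element ERSE, which is CCAAT, 9 bases of any kind and CCACG, and the core of the unfolded protein response element UPRE, TGACGTGG. They share 5 letters on opposite strands and so can overlap, but no gene of the set matched both. ERSE was found for 4 genes, CALR, CANX, PDIA6 and XBP1, or 5.88% of the 68, against 16 of 8942 genes of the table with a window (0.179%). The UPRE core was found for 11 genes (16.2%), against 110 of 8942 (1.23%). A match is a match of letters, and it does not show that a factor binds.

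Shown are the ERSE promoters of the 3 genes that fell and the UPRE core promoters of the 2 coat genes that fell. The ERSE promoter of CANX, which was not called, is left out. So are the UPRE core promoters of SRP19, which rose, and of 8 genes not called or not tested. Whether an element goes with a change in expression was not tested. Each sequence shown runs 5′ to 3′ on the strand of its gene and ends 20 bases after the start, with the matched element in capitals.
XBP1 (chr22:28800550-28800819, minus strand): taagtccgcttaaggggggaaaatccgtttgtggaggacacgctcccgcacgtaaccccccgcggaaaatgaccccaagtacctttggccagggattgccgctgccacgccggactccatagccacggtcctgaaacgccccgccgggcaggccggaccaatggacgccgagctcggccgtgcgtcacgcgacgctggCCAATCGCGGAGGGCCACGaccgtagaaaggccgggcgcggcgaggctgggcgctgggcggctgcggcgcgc
CALR (chr19:12938359-12938628, plus strand): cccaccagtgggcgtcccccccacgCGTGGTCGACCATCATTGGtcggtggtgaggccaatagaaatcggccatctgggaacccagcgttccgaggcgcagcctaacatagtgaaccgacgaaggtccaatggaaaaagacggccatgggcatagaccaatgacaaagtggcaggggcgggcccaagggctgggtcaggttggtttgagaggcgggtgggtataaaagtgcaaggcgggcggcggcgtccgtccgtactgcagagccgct
PDIA6 (chr2:10812766-10813035, minus strand): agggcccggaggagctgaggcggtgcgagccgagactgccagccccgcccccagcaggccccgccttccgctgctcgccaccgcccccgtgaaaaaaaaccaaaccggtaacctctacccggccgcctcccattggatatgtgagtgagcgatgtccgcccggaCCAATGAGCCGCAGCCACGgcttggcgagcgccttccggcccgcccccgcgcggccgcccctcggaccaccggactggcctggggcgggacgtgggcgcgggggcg
SEC23A (chr14:39103216-39103485, minus strand): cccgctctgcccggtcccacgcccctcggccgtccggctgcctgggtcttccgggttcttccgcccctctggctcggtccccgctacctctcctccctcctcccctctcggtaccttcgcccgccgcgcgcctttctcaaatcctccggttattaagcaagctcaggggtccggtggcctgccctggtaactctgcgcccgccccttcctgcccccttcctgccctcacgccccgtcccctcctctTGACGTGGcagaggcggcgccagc
COPA (chr1:160343231-160343500, minus strand): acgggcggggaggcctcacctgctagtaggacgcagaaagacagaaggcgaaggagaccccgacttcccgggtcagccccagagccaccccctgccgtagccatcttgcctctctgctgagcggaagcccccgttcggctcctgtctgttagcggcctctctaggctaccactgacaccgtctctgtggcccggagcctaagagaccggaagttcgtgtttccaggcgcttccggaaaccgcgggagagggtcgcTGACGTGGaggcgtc
The element is in forward orientation in XBP1, 52 bases before the start, and in PDIA6, 86 bases before it, and reversed in CALR. ERSE was present in 3 of 6 folding genes with a window and in none of the 14 COPII, 7 COPI or 12 cargo receptor genes. The UPRE core was present in 3 of 7 COPI genes (COPA, COPB1 and COPB2) and 4 of 14 COPII genes (SEC16A, SEC16B, SEC23A and SEC24A), and in none of the 6 folding genes. The others with it were SEC62, SSR3, SSR4 and SRP19. Among genes with a window, the UPRE core was found for 2 of 18 that fell, 1 of 5 that rose and 8 of 45 that were not called or not tested, and ERSE for 3 of 18 that fell, 0 of 5 that rose and 1 of 45 of the rest.

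XBP1 and 6 of the 7 lectin chaperones and disulfide isomerases were lower with doxycycline, as were 13.6% of all genes tested. XBP1 (chromosome 22, 29190543 to 29196585, minus strand, ENSG00000100219, GRCh37) had 26.5, 27.6 and 27.9 FPKM in doxycycline libraries, against 36.6, 36.4 and 35.6 FPKM in vehicle libraries. All doxycycline libraries were below all vehicle libraries, and XBP1 fell by 24.6% (log2 fold change -0.39, SE 0.03, adjusted p = 3.52e-04). FPKM of the whole gene does not separate the spliced, active form of its mRNA from the unspliced one. Its 2 upstream partners in the response differed in outcome. ERN1, the kinase and nuclease that splices XBP1 mRNA, fell to 2.03 ± 0.248 FPKM with doxycycline, against 2.68 ± 0.00659 FPKM with vehicle (adjusted p = 0.0274), a call lost without any 1 library other than doxycycline replicate 1 (adjusted p = 0.0726 to 0.0821). ATF6, a membrane-bound transcription factor, did not pass, at 9.02 ± 0.183 FPKM with doxycycline and 8.50 ± 0.378 FPKM with vehicle (adjusted p = 0.254).

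Among these folding genes none rose, and in all 7 every doxycycline library was below every vehicle library, as in 22.3% of all genes tested. Their median log2 fold change was -0.32, against 0.01 over all genes tested, and their summed FPKM was 886 ± 32.6 with doxycycline and 1040.1 ± 18.4 with vehicle. CALR, calreticulin, a soluble chaperone that holds newly glycosylated proteins and buffers calcium (chromosome 19, 13049392 to 13055303, plus strand, ENSG00000179218), had 304, 306 and 306 FPKM in doxycycline libraries, against 367, 349 and 361 FPKM in vehicle libraries, and was the most abundant of the 75 genes. It fell by 15.1% (log2 fold change -0.23, SE 0.03, adjusted p = 0.00127). PDIA4, a disulfide isomerase also called ERp72, had 149, 150.0 and 153 FPKM in doxycycline libraries, against 189.9, 186 and 188 FPKM in vehicle libraries. The gap between the groups was many times the spread within them, and PDIA4 fell by 19.9% (log2 fold change -0.32, SE 0.02, adjusted p = 2.03e-04).

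PDIA5, another isomerase (chromosome 3, 122785909 to 122944074, plus strand, ENSG00000065485), fell by 27.98%, with 12.3, 11.7 and 12.5 FPKM in doxycycline libraries, against 17.8, 16.4 and 16.4 FPKM in vehicle libraries (log2 fold change -0.44, adjusted p = 0.00133). It overlaps SEC22A on the same strand, which stood far lower at 2.03 ± 0.191 FPKM with doxycycline and 2.65 ± 0.767 FPKM with vehicle and did not pass. PDIA2, an isomerase best known from pancreas, had 2.89, 3.02 and 3.49 FPKM in doxycycline libraries, against 4.26, 5.22 and 4.31 FPKM in vehicle libraries (log2 fold change -0.43, adjusted p = 0.0160), a call lost without doxycycline replicate 1 (adjusted p = 0.0528) or 2 (adjusted p = 0.0534). The smallest changes in this role were in 2 abundant isomerases. PDIA3, or ERp57, the partner of calreticulin and calnexin on glycoproteins, stood at 119.9 ± 4.73 FPKM with doxycycline and 131 ± 2.66 FPKM with vehicle (log2 fold change -0.13, adjusted p = 0.0384), and PDIA6 at 169 ± 0.588 FPKM with doxycycline and 183 ± 4.56 FPKM with vehicle (log2 fold change -0.11, adjusted p = 0.0195). The PDIA3 call ended without any 1 library other than doxycycline replicate 1 (adjusted p = 0.0757 to 0.102), and the PDIA6 call without any doxycycline library or vehicle replicate 3 (adjusted p = 0.0526 to 0.0604). CALR, PDIA3 and PDIA6 were also not called after quantile normalization (log2 fold change -0.03, -0.10 and -0.06, adjusted p = 0.221, 0.135 and 0.244), under which 3 of the 7 genes fell, whereas XBP1 and PDIA4 kept log2 fold changes of -0.39 and -0.27 with their calls.

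CANX, calnexin, the membrane-bound counterpart of calreticulin, was the folding gene that did not pass. It had 86.3, 145 and 146 FPKM in doxycycline libraries, against 159.6, 153 and 157 FPKM in vehicle libraries (log2 fold change -0.36, SE 0.20, adjusted p = 0.244). Doxycycline replicate 1 lay far below the other doxycycline libraries, which in turn lay just below the vehicle libraries. Without doxycycline replicate 1 the log2 fold change was -0.11 (adjusted p = 0.0581).

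**Figure D2:**
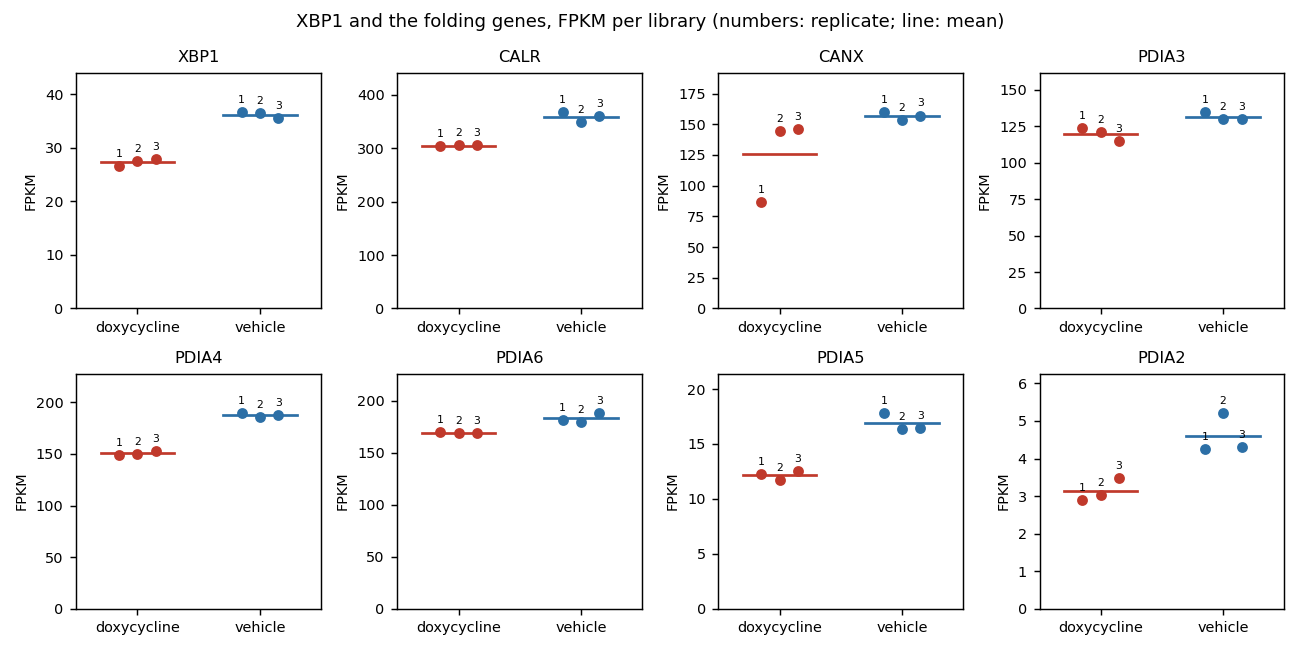
FPKM (y axis, from 0) of XBP1 and the 7 folding genes in each doxycycline and vehicle library, with the replicate number beside each point and the group mean as a line. In all 8 genes every doxycycline point is below every vehicle point, and CANX is the gene in which doxycycline replicate 1 stands apart.

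At the entry end of the pathway genes of the particle, its receptor and the channel mostly did not pass, like most genes tested. Of 8 genes of the SRP and its receptor 1 rose and none fell, or 12.5% called against 28.8% of all genes tested. Their summed FPKM was 324 ± 13.04 with doxycycline and 304 ± 5.07 with vehicle. SRP19, the subunit that prepares SRP RNA for the signal-binding subunit SRP54, had 11.3, 12.1 and 12.3 FPKM in doxycycline libraries, against 9.92, 9.44 and 10.1 FPKM in vehicle libraries. The groups did not overlap, and SRP19 rose by 21.1% (log2 fold change 0.25, SE 0.05, adjusted p = 0.0104). SRP9, part of the domain that slows elongation, was the most abundant of the 8, with 144, 151 and 152 FPKM in doxycycline libraries, against 134, 138 and 141 FPKM in vehicle libraries (log2 fold change 0.11, adjusted p = 0.0518). It lay just outside the threshold and was called without doxycycline replicate 1 (adjusted p = 0.0367). The log2 fold changes of the other 6, among them SRP54 and the receptor subunits SRPRA and SRPRB, ran from -0.03 to 0.18.

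Of 8 genes of the translocation channel 1 rose and 1 fell, or 25% called, near the 28.8% of all genes tested. SEC61G, a small subunit of the channel, had 30.3, 30.8 and 29.8 FPKM in doxycycline libraries, against 36.1, 33.5 and 32.8 FPKM in vehicle libraries and fell by 11.3% (log2 fold change -0.17, adjusted p = 0.0313), a call that ended without any 1 doxycycline library or vehicle replicate 2 (adjusted p = 0.0635 to 0.0908). SEC61B, the other small subunit, had the highest mean of the channel genes over the 6 libraries, though SEC61A1 was above it in every vehicle library, and did not pass, with 74.3, 73.2 and 71.1 FPKM in doxycycline libraries, against 79.00, 72.2 and 76.96 FPKM in vehicle libraries (log2 fold change -0.06, adjusted p = 0.312). TRAM2, a relative of the channel-associated protein TRAM1, rose by 18.4%, with 22.9, 23.9 and 23.6 FPKM in doxycycline libraries, against 19.2, 19.6 and 20.6 FPKM in vehicle libraries (log2 fold change 0.23, adjusted p = 0.00662), whereas TRAM1 did not pass (log2 fold change -0.04, adjusted p = 0.468). SEC62 and SEC63, which assist the channel, had log2 fold changes of 0.01 and -0.07.

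SEC61A1, the pore subunit itself (chromosome 3, 127770484 to 127790526, plus strand, ENSG00000058262), had 32.4, 73.1 and 72.03 FPKM in doxycycline libraries, against 80.6, 80.5 and 84.1 FPKM in vehicle libraries. Doxycycline replicate 1 was under the others by more than a factor of 2, so the standard error was wide and the gene did not pass (log2 fold change -0.55, SE 0.31, adjusted p = 0.238). Without that library SEC61A1 was called lower, with a log2 fold change of -0.17 (adjusted p = 0.0232). Its weakly expressed paralog SEC61A2 stood at 2.92 ± 0.581 FPKM with doxycycline and 2.01 ± 0.164 FPKM with vehicle (log2 fold change 0.37, adjusted p = 0.0618), and was called without doxycycline replicate 2 (adjusted p = 0.0142). None of the 4 genes of the translocon-associated protein complex, which helps some signal sequences to open the channel, passed. Of all genes tested 28.8% did. SSR3, the most abundant of them, had 46.1, 45.6 and 46.9 FPKM in doxycycline libraries, against 47.8, 50.6 and 51.2 FPKM in vehicle libraries (log2 fold change -0.11, adjusted p = 0.0637), and was called without vehicle replicate 1 (adjusted p = 0.0275).

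Of 5 signal peptidase genes 1 fell and none rose, or 20% called against 28.8% of all genes tested. SEC11A and SEC11C are alternative catalytic subunits of the enzyme. SEC11C (chromosome 18, 56806709 to 56826068, plus strand, ENSG00000166562) had 6.77, 5.97 and 6.56 FPKM in doxycycline libraries, against 12.04, 11.8 and 11.6 FPKM in vehicle libraries. The groups were far apart, and SEC11C fell by 45.5%, the largest decrease among the 25 called genes (log2 fold change -0.79, SE 0.05, adjusted p = 1.88e-04). SEC11A had 14.6, 15.4 and 14.9 FPKM in doxycycline libraries, against 14.8, 13.8 and 11.2 FPKM in vehicle libraries, the groups overlapped, and it did not pass (log2 fold change 0.17, adjusted p = 0.238). As a share of both, SEC11C made up 31.7, 27.9 and 30.5% in doxycycline libraries, against 44.9, 46.1 and 51.0% in vehicle libraries. The noncatalytic subunits SPCS1, SPCS2 and SPCS3 did not pass. SPCS3, the most abundant gene of the complex, had 27.9, 27.8 and 27.4 FPKM in doxycycline libraries, against 26.8, 28.4 and 27.4 FPKM in vehicle libraries (log2 fold change 0.01). SPCS2 had 16.9, 16.4 and 16.9 FPKM in doxycycline libraries, against 19.7, 17.5 and 21.3 FPKM in vehicle libraries (log2 fold change -0.20, adjusted p = 0.0752), and was called without vehicle replicate 2 (adjusted p = 0.0166).

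On the way out of the ER, 3 of the 13 tested genes of the COPII coat and its exit sites fell and none rose. That is 23.1% lower against 13.6% of all genes tested, and 23.1% called in either direction against 28.8%. The median log2 fold change of the 13 was -0.06. The 3 belong to both layers of the coat. SEC31A, which forms the outer cage, had 19.8, 19.6 and 20.2 FPKM in doxycycline libraries, against 23.4, 23.9 and 25.5 FPKM in vehicle libraries and fell by 18.1% (log2 fold change -0.27, SE 0.04, adjusted p = 0.00424). SEC13, its partner in the cage, had 20.1, 20.2 and 20.4 FPKM in doxycycline libraries, against 23.9, 22.3 and 23.5 FPKM in vehicle libraries and fell by 12.9% (log2 fold change -0.19, adjusted p = 0.0104). SEC23A, an inner coat subunit that stimulates the GTPase SAR1, had 27.6, 27.3 and 27.2 FPKM in doxycycline libraries, against 30.6, 33.1 and 32.9 FPKM in vehicle libraries and fell by 15.03% (log2 fold change -0.23, adjusted p = 0.00697). In each of these genes the groups did not overlap.

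SEC23B, the paralog of SEC23A and the most abundant COPII gene, did not pass, with 39.8, 41.1 and 42.00 FPKM in doxycycline libraries, against 37.3, 38.1 and 40.3 FPKM in vehicle libraries (log2 fold change 0.09, adjusted p = 0.158). SEC23B made up 59.0, 60.1 and 60.7% of the SEC23 FPKM in doxycycline libraries, against 54.9, 53.5 and 55.0% in vehicle libraries. Among the 4 SEC24 genes, whose products choose the cargo, none passed, although 3 alternative settings called SEC24A lower and 1 called SEC24D lower. Their order was the same in each group, with SEC24C at 40.0% of the SEC24 FPKM with doxycycline and 38.1% with vehicle, SEC24A at 27.0 and 28.2%, SEC24B at 19.2 and 17.8%, and SEC24D at 13.8 and 15.8%. SEC16A, the scaffold of exit sites, and MIA3, or TANGO1, which helps export bulky cargo such as collagen, did not pass (log2 fold change 0.09 and -0.06).

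SAR1A, the GTPase that starts coat assembly, had 18.01, 18.4 and 14.5 FPKM in doxycycline libraries, against 19.99, 6.90 and 7.25 FPKM in vehicle libraries. Vehicle replicate 1 lay with the doxycycline libraries and the other vehicle libraries lay far below, so the groups overlapped and the gene did not pass (log2 fold change 0.69, SE 0.38, adjusted p = 0.234). Without vehicle replicate 1 it was called higher, with a log2 fold change of 1.15 (adjusted p = 0.00274). Its paralog SAR1B did not pass, at 4.74 ± 0.363 FPKM with doxycycline and 5.05 ± 0.312 FPKM with vehicle. The 2 genes under the limit of 1 FPKM were both of this coat. SEC16B, the minor scaffold paralog, had 0.181, 0.185 and 0.305 FPKM in doxycycline libraries, against 1.09, 0.765 and 0.894 FPKM in vehicle libraries, and SEC31B averaged 0.471 ± 0.107 FPKM with doxycycline and 0.540 ± 0.0398 FPKM with vehicle. With no limit on low values SEC16B was called lower (log2 fold change -0.65, adjusted p = 2.36e-03) and SEC31B was not (log2 fold change -0.07).

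**Figure D3:**
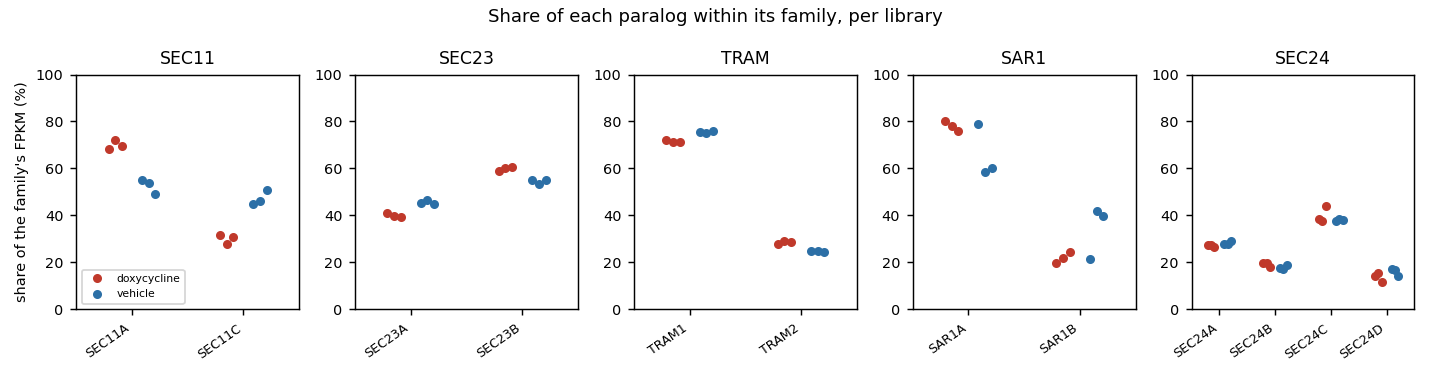
Share of each paralog in the summed FPKM of its family (y axis, percent) in each doxycycline and vehicle library. The shares of SEC11C and SEC23A are lower in every doxycycline library than in any vehicle library, the SEC24 shares overlap for SEC24B, SEC24C and SEC24D, and SAR1 is split by vehicle replicate 1.

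The difference between partners was tested on the log2 ratio of their FPKM with an exact two-sided permutation test, for 10 ratios chosen after the values were seen, 9 of them between paralogs. The smallest p that 3 against 3 libraries allow is 0.1. That p was reached for SEC11C over SEC11A, where the ratio moved by -1.07 with doxycycline, for SEC23A over SEC23B (-0.32), for TRAM2 over TRAM1 (0.29), for SEC61A2 over SEC61A1 (1.08), for SEC16B over SEC16A (-2.16) and for LMAN1 over MCFD2 (-0.47), each 0.167 after Benjamini-Hochberg adjustment over the 10. The groups overlapped for the other ratios, COPG2 over COPG1, SAR1B over SAR1A, SEC31B over SEC31A and SEC24D over SEC24C (p = 0.3 to 0.8 in the exact test). In doxycycline replicate 1, where SEC61A1 was low, the log2 ratio of SEC61A2 over SEC61A1 was -3.43. That ratio was -4.99 and -4.38 in doxycycline replicates 2 and 3. SEC16B averaged under the limit of 1 FPKM, so its ratio rests on low values.

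Cargo receptors changed in both directions, with 5 of 14 genes lower and 2 higher. That is 35.7% lower against 13.6% of all genes tested, and 14.3% higher against 15.2%. LMAN1, or ERGIC-53, a lectin that carries coagulation factors V and VIII out of the ER, had 61.9, 60.1 and 63.03 FPKM in doxycycline libraries, against 74.03, 78.3 and 77.9 FPKM in vehicle libraries and fell by 19.6% (log2 fold change -0.31, SE 0.03, adjusted p = 0.00128). MCFD2, the soluble partner that LMAN1 needs for that cargo, had 75.7, 77.9 and 75.99 FPKM in doxycycline libraries, against 68.2, 68.8 and 68.5 FPKM in vehicle libraries and rose by 11.7% (log2 fold change 0.16, SE 0.02, adjusted p = 0.00446). The groups did not overlap in either gene, and the partners thus moved apart, with MCFD2 more abundant in each doxycycline library and LMAN1 in each vehicle library. F5, the gene of the cargo factor V, stood at 19.6 ± 0.103 FPKM with doxycycline and 21.3 ± 0.118 FPKM with vehicle (log2 fold change -0.12, adjusted p = 0.0226), a call lost when any 1 of the 6 libraries was left out (adjusted p = 0.0502 to 0.0682).

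SURF4, a receptor for soluble cargo that includes lipoproteins, had 53.3, 53.2 and 50.7 FPKM in doxycycline libraries, against 62.4, 98.3 and 106 FPKM in vehicle libraries (log2 fold change -0.72, SE 0.19, adjusted p = 0.0380). It was called lower, by 41.1%, but vehicle replicate 1 was nearer to the doxycycline libraries than to the other vehicle libraries. The call ended without any 1 library other than vehicle replicate 1 (adjusted p = 0.0901 to 0.109), and without vehicle replicate 1 the log2 fold change was -0.95 (adjusted p = 3.66e-04).

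The p24 proteins, encoded by the TMED genes, are membrane proteins that cycle between ER and Golgi and serve as receptors, for example for GPI-anchored cargo. TMED5 had 22.1, 22.02 and 22.3 FPKM in doxycycline libraries, against 28.1, 28.5 and 26.8 FPKM in vehicle libraries and fell by 20.4% (log2 fold change -0.32, adjusted p = 0.00117). TMED9 and TMED10 also fell, by 12.4% and 9.03%. The TMED10 call ended without doxycycline replicate 1 (adjusted p = 0.0549), vehicle replicate 2 (adjusted p = 0.0558) or vehicle replicate 3 (adjusted p = 0.0573). TMED6, one of the weakly expressed p24 genes (chromosome 16, 69377151 to 69385712, minus strand, ENSG00000157315), went the other way, with 6.50, 5.64 and 6.70 FPKM in doxycycline libraries, against 3.74, 3.16 and 3.52 FPKM in vehicle libraries. TMED6 overlaps another listed gene, AC026464.3, on the same strand. No library of one group reached the other, and TMED6 rose 1.81-fold, the largest increase among the 25 called genes (log2 fold change 0.70, SE 0.08, adjusted p = 0.00153).

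TMED2, a p24 protein that pairs with TMED10, had 33.8, 37.5 and 35.8 FPKM in doxycycline libraries, against 40.2, 78.2 and 78.4 FPKM in vehicle libraries. Here again vehicle replicate 1 lay beside the doxycycline libraries while the other vehicle libraries were about alike and far above. TMED2 did not pass (log2 fold change -0.80, SE 0.26, adjusted p = 0.0660), and without vehicle replicate 1 it was called lower with a log2 fold change of -1.11 (adjusted p = 2.93e-04). TMED1, TMED3, TMED4, TMED7, TMED8 and TMED7-TICAM2 did not pass, with log2 fold changes from -0.07 to 0.18.

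In 9 of the 73 tested genes the highest library of a group was at least 1.5 times the lowest, or 12.3%, against 13.9% of all genes tested. Among genes with a mean of at least 10 FPKM the counts were 6 of 56 in this set (10.7%) and 296 of 3881 overall (7.63%). The 6 were SEC61A1, CANX, SSR1, SAR1A, SURF4 and TMED2. Doxycycline replicate 1 was the library apart in SEC61A1 and CANX, and vehicle replicate 1 in SAR1A, SURF4 and TMED2. SSR1, a subunit of the translocon-associated complex, had 10.1, 14.9 and 16.2 FPKM in doxycycline libraries, against 16.3, 11.8 and 11.9 FPKM in vehicle libraries, with a split in both groups. No library was apart in all 6, but each library apart was a replicate 1, in SSR1 that of both groups. The cause was not tested.

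**Figure D4:**
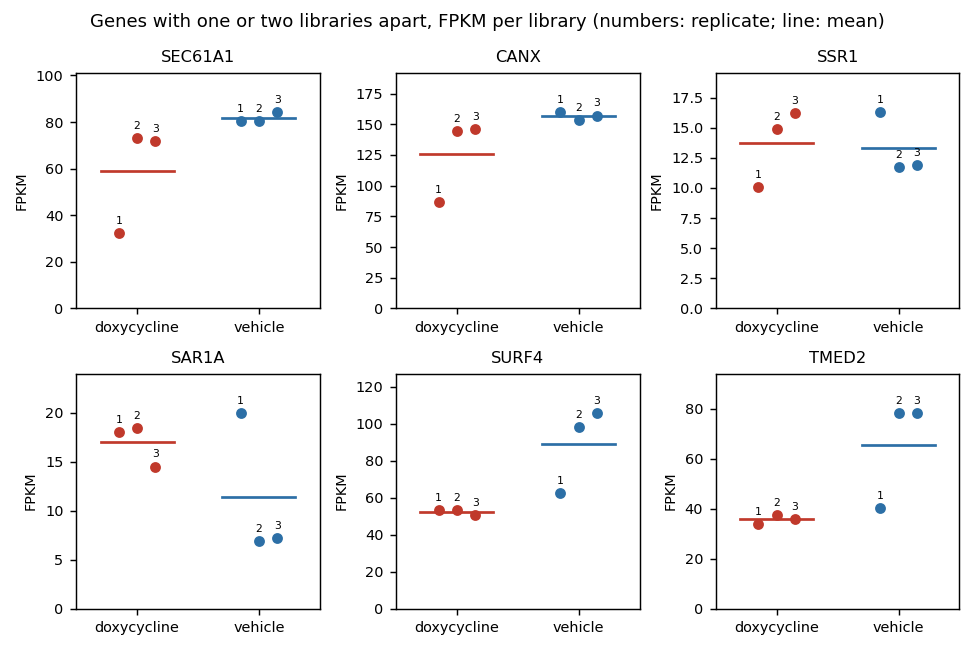
FPKM (y axis, from 0) in each doxycycline and vehicle library of the 6 genes with a mean of at least 10 FPKM and a ratio of at least 1.5 between libraries of a group, with the replicate number beside each point and the group mean as a line. Doxycycline replicate 1 is low in SEC61A1, CANX and SSR1, and vehicle replicate 1 lies near the doxycycline points in SAR1A, SURF4 and TMED2.

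The COPI coat, which returns escaped proteins from the Golgi, was lower in 3 of 7 genes and higher in none. That is 42.9% lower against 13.6% of all genes tested, and 42.9% called in either direction against 28.8%. All 7 log2 fold changes were negative, with a median of -0.11, although not all stayed so. That of COPG2 ran from -0.07 to 0.04 when 1 library was left out. COPZ1, the zeta subunit, had 24.8, 25.2 and 26.2 FPKM in doxycycline libraries, against 30.4, 30.4 and 34.2 FPKM in vehicle libraries and fell by 19.7% (log2 fold change -0.30, SE 0.05, adjusted p = 0.00881). COPE, the epsilon subunit, had 18.2, 17.7 and 19.2 FPKM in doxycycline libraries, against 22.5, 19.7 and 23.3 FPKM in vehicle libraries (log2 fold change -0.24, adjusted p = 0.0496), a call close to the threshold that ended without any 1 library other than vehicle replicate 2 (adjusted p = 0.0717 to 0.132). COPA, the alpha subunit and the most abundant of the 7, had 43.9, 44.3 and 45.1 FPKM in doxycycline libraries, against 47.7, 48.5 and 48.1 FPKM in vehicle libraries and fell by 7.65% (log2 fold change -0.11, adjusted p = 0.0200), and its call ended without doxycycline replicate 1 or 2 or vehicle replicate 2 or 3 (adjusted p = 0.0584 to 0.0647). The beta subunits COPB1 and COPB2 and the gamma subunits COPG1 and COPG2 did not pass, although COPB2 was called without doxycycline replicate 2 (adjusted p = 0.0454).

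ARCN1, the delta subunit of the same coat, is not named by the COP pattern and was taken from a list of other traffic genes. It had 43.6, 44.6 and 45.03 FPKM in doxycycline libraries, against 31.8, 31.7 and 31.9 FPKM in vehicle libraries and rose 1.40-fold (log2 fold change 0.47, SE 0.03, adjusted p = 9.10e-05). Among the 7 COPI genes above and ARCN1, 1 was therefore called higher and 3 lower. The lower calls of COPE and COPA were each lost in 6 of 15 alternatives.

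None of the 3 SEC22 genes passed, whereas 28.8% of all genes tested did. SEC22B, a SNARE that fuses vesicles between ER and Golgi, had 13.4, 13.3 and 13.8 FPKM in doxycycline libraries, against 12.96, 13.2 and 14.4 FPKM in vehicle libraries (log2 fold change -0.0017, SE 0.05), the log2 fold change closest to 0 in the set. SEC22A, at 2.03 ± 0.191 FPKM with doxycycline and 2.65 ± 0.767 FPKM with vehicle, was called without vehicle replicate 2 (adjusted p = 0.0272). Of the lipid-binding proteins matched by name, SEC14L1 rose by 33.2%, with 14.1, 15.4 and 15.1 FPKM in doxycycline libraries, against 12.6, 9.67 and 11.3 FPKM in vehicle libraries (log2 fold change 0.39, adjusted p = 0.0248), a call that ended without doxycycline replicate 2 (adjusted p = 0.0759), doxycycline replicate 3 (adjusted p = 0.0731) or vehicle replicate 3 (adjusted p = 0.0630). SEC14L2 and SEC14L6 did not pass, though SEC14L2 was called without doxycycline replicate 1 (adjusted p = 0.0343). Without the SEC14L genes and the readthrough gene, 20 of 69 tested genes fell and 4 rose.

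Genes of the same pathway that the name rule leaves out were taken from lists by function. Of 29 further chaperones, oxidoreductases and prolyl isomerases of the ER 7 fell and 6 rose, or 44.8% called against 28.8% of all genes tested. DNAJC3, DNAJC10 and HYOU1 were among the 16 that did not pass (log2 fold change 0.03, 0.12 and -0.09, adjusted p = 0.504, 0.583 and 0.495). Named here after their values were seen, the genes that fell included 2 heat shock proteins of the ER, whereas the genes that rose included the J-domain cochaperones DNAJB9, DNAJB11 and DNAJC1 (log2 fold change 0.25, 0.17 and 0.35, adjusted p = 0.0323, 0.0492 and 0.0102). The DNAJB9 call ended without any 1 library other than doxycycline replicate 2 or vehicle replicate 3 (adjusted p = 0.0754 to 0.0947), and the DNAJB11 call without any 1 other than doxycycline replicate 1 (adjusted p = 0.0626 to 0.128). HSP90B1, or GRP94, stood at 193 ± 2.79 FPKM with doxycycline and 236 ± 5.45 FPKM with vehicle (log2 fold change -0.29, adjusted p = 5.98e-04), and HSPA5, or BiP, at 269 ± 5.86 FPKM with doxycycline and 302 ± 1.22 FPKM with vehicle (log2 fold change -0.17, adjusted p = 0.00363), a call that ended after quantile normalization (log2 fold change -0.02, adjusted p = 0.745). Both hold ERSE in their RefSeq promoter window and are among the 12 of 8874 genes outside the set that do. Matches of other genes outside the set, among them the listed genes that rose, were not looked at singly. Whether the element goes with the decreases was not tested. The called genes with the largest log2 fold changes in size were prolyl isomerases, FKBP11, which rose to 9.31 ± 0.333 FPKM with doxycycline, against 6.37 ± 0.583 FPKM with vehicle, and FKBP7, which fell (log2 fold change -0.42, adjusted p = 0.0116).

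Of 25 genes of N-glycosylation and glycan trimming 7 fell and none rose, or 28.0% lower against 13.6% of all genes tested, and 28.0% called in either direction against 28.8%. They were led by STT3A, the catalytic subunit of the oligosaccharyltransferase that acts at the channel, at 28.5 ± 0.762 FPKM with doxycycline and 35.2 ± 0.887 FPKM with vehicle (log2 fold change -0.30, adjusted p = 0.00163), and PRKCSH, the beta subunit of glucosidase II, at 21.5 ± 1.00 FPKM with doxycycline and 26.1 ± 0.719 FPKM with vehicle (log2 fold change -0.27, adjusted p = 0.00591). Of 24 genes of ER-associated degradation 3 rose and none fell, or 12.5% called, below the 28.8% of all genes tested. EDEM1, which extracts misfolded glycoproteins from the folding cycle, rose 1.35-fold (log2 fold change 0.41, adjusted p = 0.00175), and UBXN4, an ER anchor for the segregase VCP, rose by 9.75% (log2 fold change 0.13, adjusted p = 0.0472), a call that ended without any 1 of the 6 libraries (adjusted p = 0.0503 to 0.124). Of 22 genes that insert tail-anchored and multipass proteins 3 rose and none fell, or 13.6% called, also below the 28.8% of all genes. The called genes with the largest log2 fold changes were EMC3, a core subunit of the ER membrane complex (log2 fold change 0.45, adjusted p = 0.00572), and ASNA1, the ATPase of tail-anchored delivery (log2 fold change 0.25, adjusted p = 0.00439).

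Of 15 sensors and factors of the unfolded protein response 5 rose and 2 fell, or 46.7% called against 28.8% of all genes tested. Among the 8 that did not pass were DDIT3 and EIF2AK3 (log2 fold change 0.06 and -0.10, adjusted p = 0.676 and 0.421). TRIB3, a pseudokinase induced under ATF4, rose 1.44-fold (log2 fold change 0.51, adjusted p = 0.00185), and PPP1R15A, which restores translation by dephosphorylating eIF2 alpha, rose 1.35-fold (log2 fold change 0.40, adjusted p = 0.00112). Of 47 further genes of traffic between ER and Golgi 3 rose and 5 fell, or 17.0% called against 28.8% of all genes tested. Besides ARCN1, the called gene with the largest log2 fold change in size was KDELR2, a receptor that returns KDEL-tailed chaperones to the ER, which fell to 49.97 ± 1.05 FPKM with doxycycline, against 63.8 ± 0.889 FPKM with vehicle (log2 fold change -0.35, adjusted p = 3.58e-04).

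Genes of the secreted liver cargo were mostly lower with doxycycline. Of 27 tested genes of plasma proteins 22 fell and 1 rose, or 85.2% called against 28.8% of all genes tested. Their median log2 fold change was -0.84, against -0.06 for the 73 genes of the apparatus. The largest decreases were in APOC3 (log2 fold change -2.92, adjusted p = 5.15e-06) and AHSG (log2 fold change -2.43, adjusted p = 1.84e-05). These decreases were known from earlier results of the same libraries and serve here only as a scale.

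**Figure D5:**
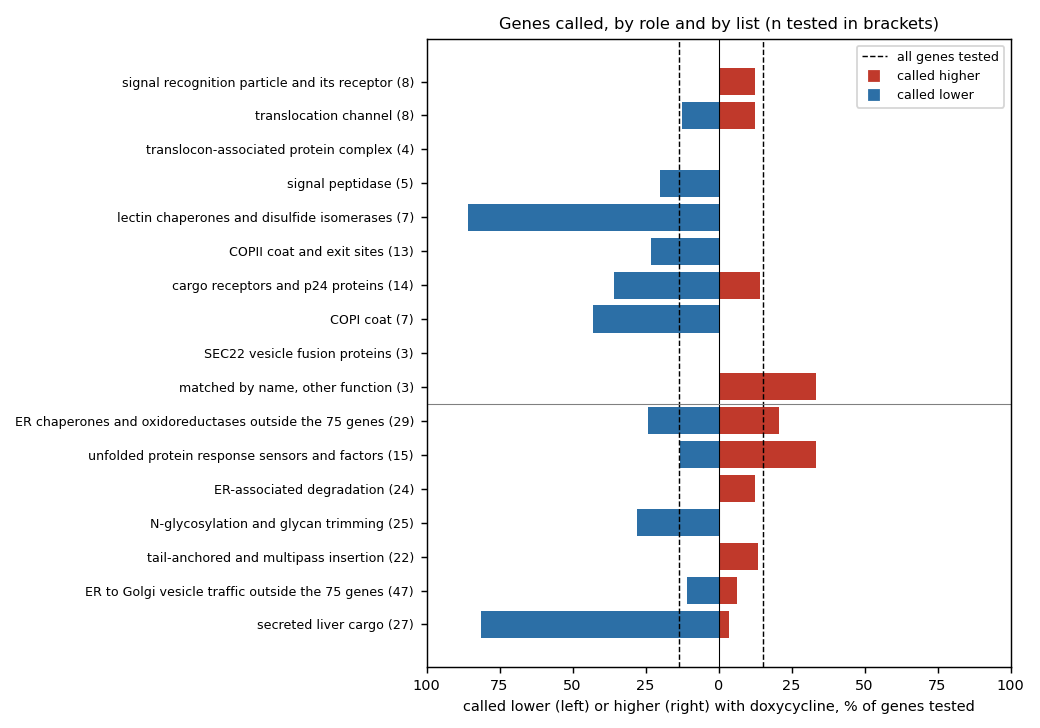
Percent of tested genes called lower (left of 0) and higher (right of 0) with doxycycline, by role for the 75 genes (above the line, XBP1 omitted) and for the lists of other genes (below), with the shares over all genes tested as dashed lines. Folding genes (6 of 7) and secreted cargo (22 of 27) have the longest bars to the left, and the translocon-associated complex and the SEC22 genes have none.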

How the data were processed

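Processed values for 6 poly(A)-selected, dUTP-stranded RNA-seq libraries were used as deposited. The values are FPKM computed by the authors, 1 column per library, and the submitters' processing notes name FastQC, cutadapt, HISAT2, StringTie and GRCh37. Tool versions, options, use of strand in counting and the annotation release are not given in the sources used here. No counts were used, so depth is unknown and no counting interval is given, and FPKM is a share of a library. All 11461 entries are protein-coding. Where symbols repeated (5 symbols, 10 entries), the entry with the highest mean was kept.

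Genes with a mean of at least 1 FPKM over the 6 libraries (10469 genes) were transformed to log2(FPKM + 1) and fitted with limma 3.58.1 (R 4.3.3), with group as the only term and a variance trend (two-sided, Benjamini-Hochberg, called below 0.05). The fit was tested on simulated data. Promoters are RefSeq windows on GRCh38.p14, whereas gene coordinates are the files' GRCh37. Figures and searches used python 3.11.15, scipy 1.17.1, pandas 2.3.3 and matplotlib 3.10.9.

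Per-library values are given for XBP1 and, in each role, for up to 3 called genes with the largest absolute log2 fold change and the most abundant gene, and up to 2 called genes are named per list of other genes. All other genes named with values were chosen after their values were seen. The genes, roles and lists were chosen with earlier results of these data known. The labels do not say whether a replicate number marks a shared culture or day. Deviations of libraries with equal numbers correlated weakly (0.015, -0.032 and 0.092), which does not exclude a pairing. Each library was left out in turn, and the other alternatives were pseudocounts of 0.1 and 0.5, no limit on low values or one of 5 FPKM, median-ratio scaling, quantile normalization, a fit without the trend, a robust fit, a replicate block and, for numbers of genes, a threshold of 0.01. The exact tests of ratios between partners were added after the values were seen.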

Additional observations from a re-analysis of the deposited data

How the results depend on the processing

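Of the 25 called genes, 15 kept their call in each alternative that tested them and 10 lost it in at least 1, and of 48 genes not called 12 gained a call in at least 1. An adjusted p below 0.01 left 11 lower and 3 higher, among them 3 folding genes and 3 cargo receptors that fell, with 761 lower and 875 higher over all genes. Quantile normalization left 3 folding genes lower, and the cause was not tested. A fit without the trend left 16 genes lower, 4 of them folding genes, and ended the calls of PDIA3 (adjusted p = 0.0746), PDIA6 (0.0657), COPA (0.0556) and COPE (0.0584). Leaving out 1 library gave 14 to 20 lower and 4 to 7 higher genes, 3 to 5 folding genes lower (3 without doxycycline replicate 2) and 3 to 6 cargo receptors lower (3 without doxycycline replicate 1, vehicle replicate 2 or vehicle replicate 3). Whether the replicate numbers pair the libraries is not stated in the labels. The replicate block gave 18 lower and 5 higher genes, against 1112 lower and 1231 higher over all genes. It ended the calls of SEC61G (adjusted p = 0.0553), SURF4 (0.0621), COPA (0.0569) and SEC14L1 (0.0692), and outside the set those of UBXN4 (0.0692), DNAJB9 (0.0646), ERN1 (0.0625) and F5 (0.0696). The log2 fold change crossed 0 when 1 library was left out in 12 genes, none of them called, among them SEC22B (-0.0299 to 0.0404), SPCS3 (-0.0096 to 0.0314) and SSR1 (-0.093 to 0.2263). Depth is unknown, so weak genes such as SEC16B and SEC31B have no stated counting error.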
